A study of Mus musculus with 18 samples.

Results

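The Myc and ribosome biogenesis genes are 40 genes whose products either form the MYC transcription factor network or make ribosomes. Each was found in the deposited table of 54347 genes by matching the first 18 characters of the table's gene ID to the gene symbol. No measured value entered this matching, but the list was chosen with earlier results of these data known. They comprise 6 genes of the MYC network, 4 of RNA polymerase I transcription, 6 that encode abundant nucleolar and growth-associated proteins, 3 of the box C/D and 3 of the box H/ACA small nucleolar ribonucleoproteins (snoRNPs), 6 of the small subunit processome and 12 of large subunit assembly. Of the 40, 39 had enough counts to be tested. Mycn, the MYC paralog best known from neural tissue, had a count of 0 in all 9 mice and was not tested.

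Leukemia stem cells (LSCs), the cells able to propagate a leukemia, came from bone marrow of C57BL/6JRj mice and were isolated by cell sorting, 7000 cells per mouse, at 30 days after the leukemia was started. In 5 mice the genotype was Prx1-Cxcl12-mutant and in 4 it was Prx1-Cxcl12-wild type, called mutant and control here. Cxcl12 encodes a chemokine that bone marrow stromal cells use to hold blood-forming cells in their niche, and Prx1 (Prrx1) regulatory sequences are widely used to direct recombination to mesenchymal stroma. The labels name no Cre line, allele, leukemia driver, sort marker, sex or age, and do not say whether the leukemia cells carry the mutation. Each mouse gave 2 technical libraries, made by MARS-seq, which reads the 3' ends of polyadenylated transcripts and was here run on bulk RNA. Total counts of the 2 libraries together averaged 20734088 ± 4170598 in mutant mice, with a range from 15959029 to 25485899, and 15160572 ± 2307737 in control mice (SD), with a range from 11766467 to 16784991. They were 1.37 times deeper in mutant mice (exact 2-sided permutation test, p = 0.0556, with 0.00794 the smallest p the design allows). Libraries ranged from 3825500 to 15071673 counts. Values below are CPM (each gene's share of the library's counts, scaled by TMM factors), and mutant mice are always given in the order 6, 7, 8, 10 and 12 and control mice in the order 1, 2, 3 and 4.

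The sorted cells carried transcripts of leukocytes and of immature myeloid cells. Of 6 leukocyte markers Elane (2556 CPM in mutant and 2156 CPM in control mice) and Mpo (1184 CPM in mutant and 838 CPM in control mice) had log2 fold changes above 0, and Ptprc, Cd44, Itgam and Spi1 had ones from -0.21 to -0.062. Of 5 progenitor markers 4 were below 0 and 1 was above, at a log2 fold change of 1.02, the largest of the 5 in size. Among the 4 below 0, Kit had 16.1 to 21.8 CPM in mutant and 23.5 to 27.4 CPM in control mice (log2 fold change -0.43 with SE 0.11, edgeR adjusted p = 0.254). Its groups did not overlap, as for 2.13% of all tested genes with the mutant mice below. Alas2, Cd3e, Cd3g, Ms4a1, Cdh5, Col1a1, Cxcl12, Pf4 and Ppbp had at most 7 counts in any mouse, and with so few counts of Cxcl12 the LSC libraries do not check the genotype. Other genes of the same lineages were present. The 4 tested globin genes all had log2 fold changes above 0, with Hbb-bs at 16.4 CPM in mutant and 8.88 CPM in control mice and Hbb-bt at 3.35 CPM in mutant and 0.896 CPM in control mice (log2 fold change 1.87 with SE 0.68, edgeR adjusted p = 0.398). Pdgfrb was at 4.49 CPM in mutant and 6.62 CPM in control mice, and Pecam1 at 37.4 CPM in mutant and 43.6 CPM in control mice. Lepr, the other tested marker of stroma and endothelium, went the other way, at a log2 fold change of 0.52. Cd79b was at 53.5 CPM in mutant and 61.8 CPM in control mice, and Nkg7 at 136 CPM in mutant and 126.2 CPM in control mice. Of the megakaryocyte markers Itga2b was called, at 0.67 CPM in mutant and 2.48 CPM in control mice (edgeR adjusted p = 0.0427), whereas Gp9 was at 3.49 CPM in mutant and 3.10 CPM in control mice (log2 fold change 0.17 with SE 0.21, edgeR adjusted p = 0.817). The part of these genes in the members' values was not tested.

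MYC binds DNA as a dimer with MAX at the E-box sequence CACGTG and raises transcription of genes for growth, with ribosome production among its best known outputs. MXD1, MXI1 and MGA also pair with MAX and oppose MYC at the same sites. Ribosomes are made in the nucleolus: RNA polymerase I transcribes the long precursor of the ribosomal RNAs, snoRNPs modify it, and separate sets of assembly factors fold and cut it into the small and the large subunit. In blood-forming tissue the pathway is known to be high in cycling progenitors and in acute leukemia, and NPM1, a nucleolar member, is among the genes most often mutated in human acute myeloid leukemia.

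The E-box was looked for in the promoter windows that RefSeq provides for build GRCm38.p6, from 250 bases before to 50 bases after each start, since MYC and MAX bind this sequence. Windows were present for 35 of the 40 members. Myc, Fbl, Npm1, Bop1 and Rrs1 had none and were not searched. CACGTG reads the same on both strands and was the only motif searched. It stood in 7 of the 35 (20%), against 12.05% of the 9212 tested genes that have a window and 8.09% of all 27025 genes with a window. The matches stand in capitals within up to 12 flanking bases on each side, each with its 300-base window and the position of the match's first base relative to the start, positive downstream.
Max, chr12:76962199-76962498 (- strand), first base of the match at -3: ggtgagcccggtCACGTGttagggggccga
Mybbp1a, chr11:72441077-72441376 (+ strand), first base of the match at +41: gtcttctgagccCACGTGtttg
Nop2, chr6:125131633-125131932 (+ strand), first base of the match at -60: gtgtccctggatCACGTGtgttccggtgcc
Pes1, chr11:3963725-3964024 (+ strand), first base of the match at +3: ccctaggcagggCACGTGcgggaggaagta
Utp20, chr10:88826765-88827064 (- strand), first base of the match at +38: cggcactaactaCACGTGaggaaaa
Utp4, chr8:106893390-106893689 (+ strand), first base of the match at +16: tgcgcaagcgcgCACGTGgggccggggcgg
Wdr43, chr17:71615965-71616264 (+ strand), first base of the match at +18: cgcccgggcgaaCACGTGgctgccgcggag

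The 7 genes are Max itself, Mybbp1a of the polymerase I group, Utp20, Utp4 and Wdr43 of the small subunit processome, and Nop2 and Pes1 of large subunit assembly. In 6 of the 7 the match began closer to the start than in Nop2, where it began at -60. The log2 fold change between mutant and control LSCs had a median of 0.0082 over these 7 genes, with 4 above 0, and a median of 0.069 over the 27 tested members whose window lacked the letters, with 19 above 0. A match describes the letters in the window and is not a mapped binding site. Sequence outside the windows was not searched, so a window without the letters does not mark a gene as no target.

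None of the 39 tested members differed between mutant and control LSCs past an edgeR adjusted p of 0.05. The smallest adjusted p was 0.408, for Pa2g4. Over all 12973 tested genes 9 passed (0.0694%), 3 higher and 6 lower in mutant mice, and at an adjusted p under 0.1 there were 10 (0.0771%), none of them a member. DESeq2 called 90 genes and limma-voom 9, again with no member among them. Without adjustment 3 members were higher at p under 0.05 (Pa2g4, Gnl3 and Wdr12), where 4.96% of all tested genes were, and 1 was lower (Fbl), where 4.89% were. Mutant and control mice did not overlap for 1 member, Fbl, with the mutant mice below, as for 2.13% of all tested genes, and for no member with the mutant mice above, as for 1.87%. Of the 39, 24 had a log2 fold change above 0, or 61.5%, against 51.7% of all tested genes, and the members' median was 0.054 against 0.0089. The members' median was 0.10 without mutant mouse 6 and 0.011 without mutant mouse 12, the extremes over the mice left out in turn. Bulk libraries cannot tell a lower share of cells that express a gene from less of its RNA per cell.

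The intervals show which differences these 9 mice leave room for. For 37 of the 39 members the 95% interval of the fold change lay within 1.5-fold in either direction. The exceptions were Npm1, with an interval from -0.16 to 1.01 on the log2 scale, and Pa2g4, with one from 0.06 to 0.62. Standard errors ran from 0.079 to 0.27, with a median of 0.11.

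**Figure D1:**
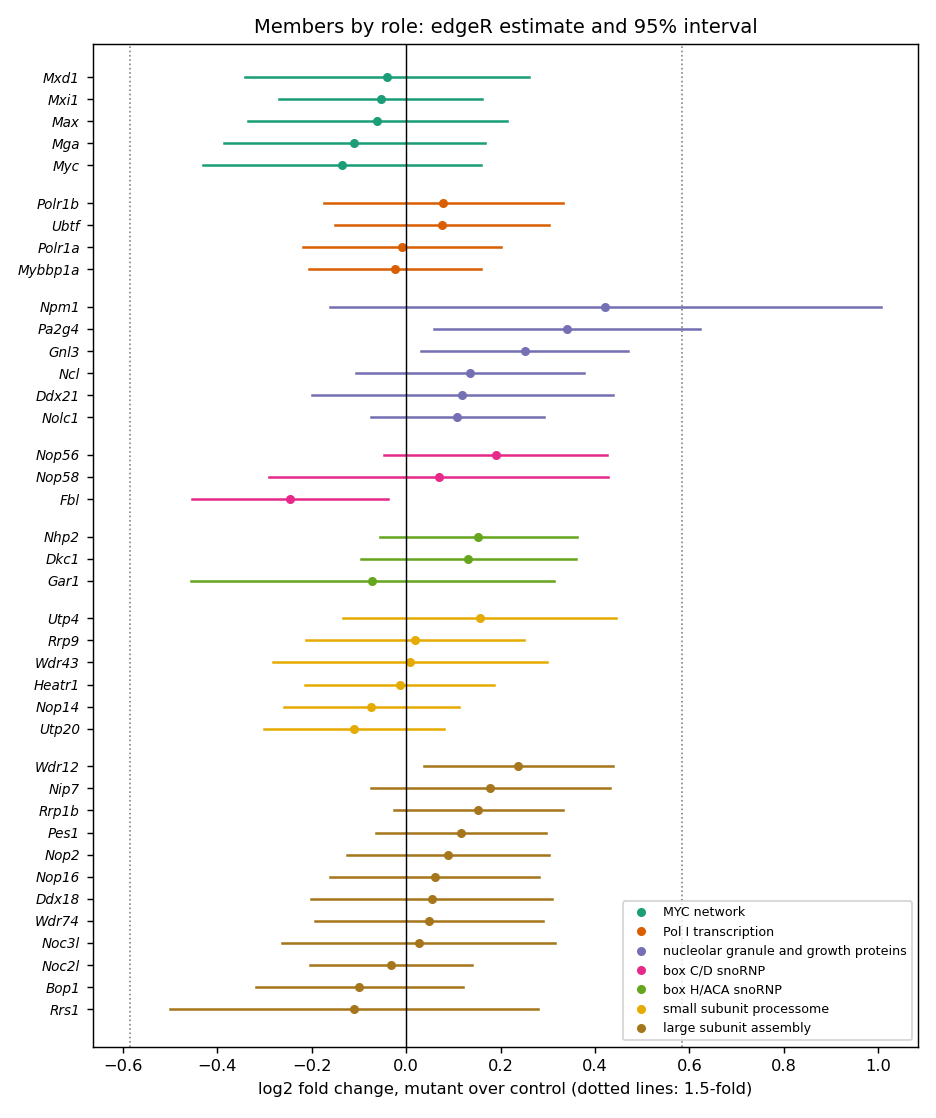
Log2 fold change of each of the 39 tested members, mutant over control, with its 95% interval from the edgeR fit, grouped by role and coloured by group; the solid line marks no difference and the dotted lines a 1.5-fold difference. Intervals of 37 members stay between the dotted lines, and those of Pa2g4, Gnl3, Wdr12 and Fbl do not cross the solid line.

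In the MYC network all 5 tested genes had log2 fold changes a little below 0, with a median of -0.061 and none past the test. Myc (chr15:61985391-61990374 on GRCm38), the transcription factor itself, had 189, 276, 177, 202 and 218 CPM in mutant mice, against 281, 215, 221 and 216 CPM in control mice. Mutant mouse 7 and control mouse 1 stood above the rest, and the other mice of both groups lay between 177 and 221 CPM, with the groups overlapping. Myc averaged 212 ± 38.8 CPM in mutant and 233 ± 31.6 CPM in control mice (SD, n = 5 and 4; log2 fold change -0.14 with SE 0.14, edgeR adjusted p = 0.774), and the 95% interval of the log2 fold change, -0.43 to 0.16, stayed short of 1.5-fold in either direction.

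Max, the obligate partner, had 36.1, 46.8, 36.9, 31.7 and 44.8 CPM in mutant mice, against 43.2, 42.7, 33.8 and 44.1 CPM in control mice, and the mutant range enclosed the control range (log2 fold change -0.061 with SE 0.13, edgeR adjusted p = 0.897). Mxi1, a repressor that competes for MAX, had 68.8, 78.5, 75.8, 87.2 and 71.8 CPM in mutant mice, against 88.7, 72.8, 71.2 and 84.7 CPM in control mice. Its log2 fold change was -0.054 (SE 0.099, edgeR adjusted p = 0.882), and the ranges of the groups nearly coincided. Mga, a large MAX partner that also belongs to a polycomb complex, had 10.5, 11.1, 11.6, 12.2 and 13.7 CPM in mutant mice, against 10.9, 14.7, 13.8 and 11.6 CPM in control mice. The 2 highest values were of control mice 2 and 3, the lowest was of mutant mouse 6, and the log2 fold change was -0.11 (SE 0.13, edgeR adjusted p = 0.802). Mxd1, the remaining repressor, averaged 9.98 CPM in mutant and 10.3 CPM in control mice, a log2 fold change of -0.040.

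In the polymerase I group 2 of 4 genes were above 0, with a median log2 fold change of 0.033. Polr1b, the second-largest subunit of the enzyme, had 10.8, 13.6, 10.8, 11.03 and 11.7 CPM in mutant mice, against 11.6, 11.1, 11.4 and 9.84 CPM in control mice. All mice but mutant mouse 7 lay between 9.84 and 11.7 CPM, and the log2 fold change was 0.079 (SE 0.12, edgeR adjusted p = 0.850). Ubtf, the factor that keeps ribosomal RNA genes open, had 46.4, 49.05, 53.9, 52.4 and 63.4 CPM in mutant mice, against 55.5, 47.7, 53.1 and 45.03 CPM in control mice, with mutant mouse 12 highest and control mouse 4 lowest (log2 fold change 0.076 with SE 0.10, edgeR adjusted p = 0.836). Mybbp1a, a nucleolar protein that binds MYB and acts on polymerase I, had 104, 99.9, 108, 101 and 95.5 CPM in mutant mice, against 106, 103, 113 and 92.3 CPM in control mice, and the control range enclosed the mutant range (log2 fold change -0.025 with SE 0.084, edgeR adjusted p = 0.941). Polr1a, the largest subunit, averaged 30.7 CPM in mutant and 30.9 CPM in control mice, a log2 fold change of -0.0095.

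All 6 nucleolar granule and growth genes had log2 fold changes above 0, from 0.11 to 0.42, with a median of 0.19. The groups overlapped for every one of them, and 2 of the 6 (Pa2g4 and Gnl3) were below an unadjusted p of 0.05. Pa2g4 (chr10:128557766-128565987), which encodes the growth-regulated ribosome-associated protein EBP1, had 177, 244, 205, 176 and 169 CPM in mutant mice, against 185, 147, 140.5 and 141 CPM in control mice. The 5 mutant mice were all above 3 of the 4 control mice, and control mouse 1 lay among the mutant mice. Its means were 194 ± 31.2 CPM in mutant and 153 ± 21.5 CPM in control mice (SD, n = 5 and 4; log2 fold change 0.34 with SE 0.13, edgeR adjusted p = 0.408).

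Gnl3 (chr14:31012433-31019152), the gene for nucleostemin, a nucleolar GTPase abundant in stem and cancer cells, had 119, 147, 128, 115 and 115 CPM in mutant mice, against 107, 97.3, 118 and 97.7 CPM in control mice. Of the control mice only mouse 3 overlapped the mutant mice, and the means were 125 ± 13.3 CPM in mutant and 105 ± 9.79 CPM in control mice (SD, n = 5 and 4; log2 fold change 0.25 with SE 0.10, edgeR adjusted p = 0.431). Ncl, the gene for nucleolin, a histone and ribosomal RNA chaperone of the nucleolus, had 766, 765, 749, 789 and 1014 CPM in mutant mice, against 834, 753, 702 and 686 CPM in control mice. Mutant mouse 12 stood apart at the top, the other mutant mice fell within the range of the control mice, and the log2 fold change was 0.14 (SE 0.11, edgeR adjusted p = 0.713). For Nolc1, a scaffold of snoRNPs, and Ddx21, an RNA helicase that couples polymerase I to processing, the log2 fold changes were 0.11 for Nolc1 and 0.12 for Ddx21.

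Npm1 (chr11:33152287-33163206), the gene for nucleophosmin, had the largest standard error and the largest fold change of the 39 members. It had 732, 893, 499, 581 and 344 CPM in mutant mice, against 296, 451, 672 and 401 CPM in control mice. The groups overlapped from 344 to 672 CPM, with mutant mouse 7 highest and control mouse 1 lowest, and mutant mouse 12 below 3 of the 4 control mice. Its means were 609.6 ± 211 CPM in mutant and 455 ± 158 CPM in control mice (SD, n = 5 and 4; log2 fold change 0.42 with SE 0.27, edgeR adjusted p = 0.627). The 2 libraries of mutant mouse 7, made from the same mouse, read 1287 and 320 CPM, a gap wider than that between any 2 mice. Without the first of these libraries the log2 fold change was 0.12, in the first libraries of all mice alone it was 0.79 and in the second libraries alone 0.022, and with sequencing depth as a covariate it was -0.10, with the sign turned. The 10 annotated pseudogenes with similar 3' sequence held 0.13% of the counts of the gene and its copies.

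**Figure D2:**
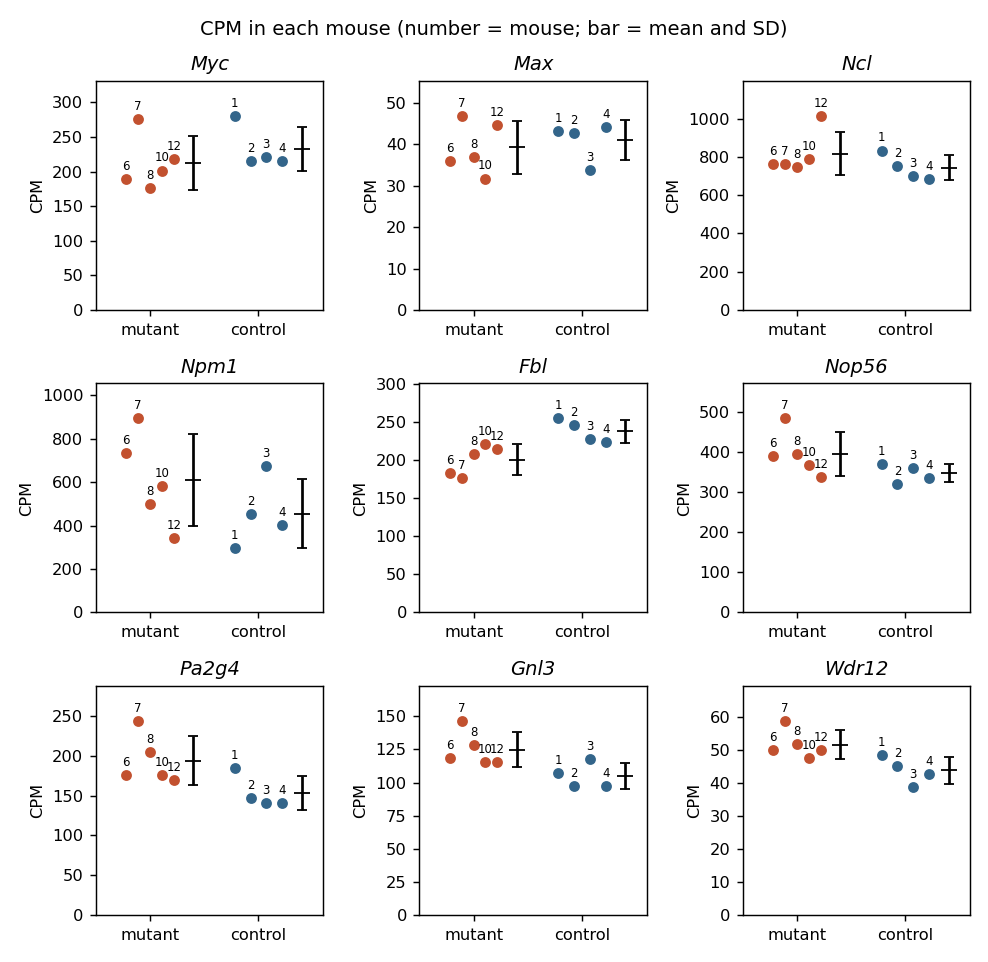
CPM of 9 members in each mouse, mutant mice left of control mice, with the mouse number above each point and the mean and SD as a bar beside each group. Fbl is the gene whose 5 mutant mice all lie below the 4 control mice (176 to 221 against 223 to 255 CPM), Npm1 spreads from 344 to 893 CPM in mutant and from 296 to 672 CPM in control mice, and mutant mouse 7 is the highest mutant mouse for Myc, Max, Npm1, Nop56, Pa2g4, Gnl3 and Wdr12.

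The box C/D snoRNP carries the enzyme fibrillarin, which methylates ribosomal RNA, on a core that includes NOP56 and NOP58. Fbl (chr7:28169710-28179269), the fibrillarin gene, had 183, 176, 208, 221 and 215 CPM in mutant mice, against 255, 246, 227 and 223 CPM in control mice. Every mutant mouse was below every control mouse, although mutant mouse 10 (221 CPM) and control mouse 4 (223 CPM) were close. Means were 201 ± 19.9 CPM in mutant and 238 ± 14.98 CPM in control mice (SD, n = 5 and 4; log2 fold change -0.25 with SE 0.095, edgeR adjusted p = 0.417, unadjusted p = 0.0240). Fbl ranked 746 of the 12973 genes by p. In the first libraries alone its log2 fold change was -0.42 and in the second libraries alone -0.12, and the libraries of mutant mouse 12 read 148 and 259 CPM, further apart than the means of the groups.

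Nop56 (chr2:130274430-130279313) had 391, 484, 395, 368 and 338 CPM in mutant mice, against 369, 321, 361 and 335 CPM in control mice. Mutant mouse 7 was highest and the ranges overlapped, with means of 395 ± 54.5 CPM in mutant and 347 ± 22.3 CPM in control mice (SD, n = 5 and 4; log2 fold change 0.19 with SE 0.11, edgeR adjusted p = 0.584). Nop58 had 81.5, 129, 89.5, 80.97 and 115 CPM in mutant mice, against 118, 95.3, 74.1 and 90.7 CPM in control mice, with the highest value in mutant mouse 7, the lowest in control mouse 3 and overlap elsewhere (log2 fold change 0.069 with SE 0.17, edgeR adjusted p = 0.918). The counts of Fbl divided by those of Nop56 in the same mouse need no scaling between libraries, and a ratio of counts is not a ratio of molecules. This ratio was 0.467, 0.364, 0.528, 0.601 and 0.634 in mutant mice, against 0.689, 0.767, 0.630 and 0.667 in control mice. Mutant mouse 12 reached just above control mouse 3, and the other 4 mutant mice lay below all control mice. The mean log2 ratio was -0.97 ± 0.32 in mutant and -0.54 ± 0.12 in control mice (SD). Fbl over Nop58 was 1.36 to 2.73 in mutant and 2.15 to 3.07 in control mice, and Nop56 over Nop58 was 2.95 to 4.80 in mutant and 3.12 to 4.87 in control mice. These ratios were formed after the values of the 3 genes had been seen, so they are given without a test.

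Other annotated loci with sequence similar to part of the 3' end could share reads with these genes. For Nop56, 6 pseudogenes held 12.6% of the counts of gene and pseudogenes together, and the log2 ratio of the groups was 0.16 for the sum. Such loci held 3.26% for Fbl, with a log2 ratio of -0.23 for the sum, and 8.03% for Wdr12, with 0.23 for the sum. Of these loci 2 of 3 for Fbl and 2 of 4 for Wdr12 were pseudogenes. The others include Tulp4 for Fbl and Pms1 for Wdr12, so the shares may hold counts that belong to other genes. Each gene kept its direction with these loci added.

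In the box H/ACA snoRNP, which converts uridine to pseudouridine, Dkc1 encodes the enzyme dyskerin, and Nhp2 and Gar1 encode core proteins. Dkc1 had 94.4, 116, 86.8, 92.7 and 100.4 CPM in mutant mice, against 100.3, 79.6, 93.7 and 84.4 CPM in control mice, with mutant mouse 7 above all others and overlap elsewhere (log2 fold change 0.13 with SE 0.10, edgeR adjusted p = 0.702). Nhp2 had 283, 303, 272, 288 and 318 CPM in mutant mice, against 264, 254, 303 and 233 CPM in control mice, and control mouse 3 alone reached into the upper part of the mutant range (log2 fold change 0.15 with SE 0.096, edgeR adjusted p = 0.621). Gar1 had 87.1, 115, 114, 127 and 152 CPM in mutant mice, against 155, 128, 84.6 and 132 CPM in control mice. It was lowest in mutant mouse 6 and control mouse 3, highest in mutant mouse 12 and control mouse 1, and had a log2 fold change of -0.072 (SE 0.18, edgeR adjusted p = 0.920).

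Of the 6 small subunit processome genes 3 were above 0, with a median log2 fold change of -0.0029. Utp20, a very large scaffold of the early particle, had 21.5, 21.6, 22.3, 21.3 and 23.8 CPM in mutant mice, against 26.1, 23.8, 23.6 and 22.1 CPM in control mice. Control mice 1, 2 and 3 were higher than most mutant mice, mutant mouse 12 lay above control mice 2, 3 and 4, and the log2 fold change was -0.11 (SE 0.088, edgeR adjusted p = 0.701). Utp4, which binds the nascent precursor, had 11.7, 16.6, 11.3, 12.6 and 12.9 CPM in mutant mice, against 12.5, 11.2, 10.7 and 12.4 CPM in control mice, with only mutant mouse 7 outside a narrow common band (log2 fold change 0.16 with SE 0.13, edgeR adjusted p = 0.724). Nop14, a processome factor essential in yeast, had 47.97, 48.8, 50.9, 50.6 and 49.2 CPM in mutant mice, against 60.5, 51.2, 48.4 and 48.3 CPM in control mice, where control mouse 1 was the single high value (log2 fold change -0.074 with SE 0.085, edgeR adjusted p = 0.801). Rrp9, a snoRNA-binding protein, and Heatr1 and Wdr43, which join the early transcript, had log2 fold changes of 0.018, -0.014 and 0.0082.

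Of the 12 large subunit genes 9 were above 0, with a median log2 fold change of 0.057. Wdr12 (chr1:60069785-60098645) forms the PeBoW complex with Pes1 and Bop1, which is needed to mature the large subunit RNA. It had 50.2, 58.96, 51.8, 47.8 and 50.2 CPM in mutant mice, against 48.7, 45.2, 38.95 and 42.9 CPM in control mice. Mutant mice 6, 7, 8 and 12 were above all control mice, and mutant mouse 10 was just below control mouse 1. The means were 51.8 ± 4.27 CPM in mutant and 43.9 ± 4.10 CPM in control mice (SD, n = 5 and 4; log2 fold change 0.24 with SE 0.093, edgeR adjusted p = 0.417). Of its partners, Pes1 had a log2 fold change of 0.12 (SE 0.082, edgeR adjusted p = 0.668) and Bop1 one of -0.099 (SE 0.10, edgeR adjusted p = 0.778).

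Rrp1b, a nucleolar protein of large subunit assembly, had 38.8, 44.4, 43.4, 38.7 and 43.7 CPM in mutant mice, against 40.4, 37.5, 37.5 and 35.3 CPM in control mice. Mutant mice 7, 8 and 12 were above all control mice, control mouse 1 was above mutant mice 6 and 10, and the log2 fold change was 0.15 (SE 0.083, edgeR adjusted p = 0.568). Nip7, a factor of precursor processing, had 58.5, 65.1, 47.6, 47.1 and 47.6 CPM in mutant mice, against 43.5, 42.99, 50.3 and 51.3 CPM in control mice, with mutant mice 6 and 7 above and the other 3 among the control mice (log2 fold change 0.18 with SE 0.12, edgeR adjusted p = 0.637). Rrs1, another assembly factor, ran from 36.6 to 63.3 CPM in mutant and from 38.7 to 67.4 CPM in control mice, lowest in mutant mouse 6 and control mouse 3 and highest in mutant mouse 12 and control mouse 1, the same mice as for Gar1. Its log2 fold change was -0.11. The other 6, among them the RNA methyltransferase gene Nop2, the helicase gene Ddx18 and the gene of the acetyltransferase inhibitor Noc2l, with Nop16, Wdr74 and Noc3l, lay between -0.033 and 0.088.

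**Figure D3:**
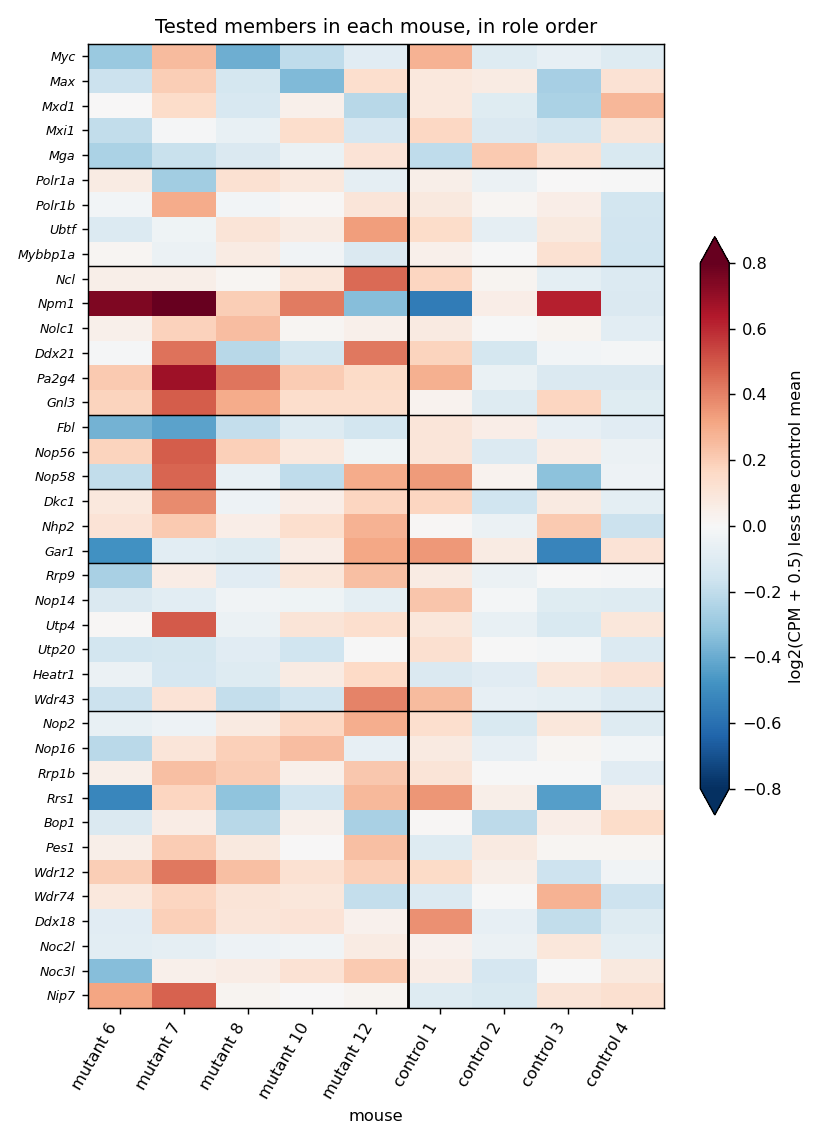
Level of each tested member in each mouse, as the log2 CPM less the mean of the control mice, mutant mice left of control mice and genes in the order of their roles (lines separate the roles). Fbl is among the strips that are blue in all 5 mutant mice, and Pa2g4, Gnl3 and Wdr12 are among those that are red in all 5. Much of the remaining colour follows single mice of either group, such as mutant mouse 7 and control mouse 1.

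The highest and lowest values of the members were spread over mice of both groups. Mutant mouse 7 had the highest CPM of the 9 mice for 13 of the 39 members, mutant mouse 12 for 9 and control mouse 1 for 8, whereas mutant mouse 6 was highest for none and lowest for 8. The median deviation of the members from the control mean was -0.050, 0.17, -0.024, 0.056 and 0.14 (log2) in mutant mice, against 0.094, -0.048, -0.0037 and -0.079 in control mice, so that the groups overlapped. The members together took 0.439 to 0.526% of all counts in mutant and 0.429 to 0.505% in control mice. Per member, the SD between mice of a group had a median of 0.15 (log2), and the SD between the 2 libraries of 1 mouse one of 0.19. Each mouse value sums 2 libraries, and the library SD divided by the root of 2 had a median of 0.13.

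Myc and the ribosome biogenesis genes were also compared from mouse to mouse. The log2 CPM of 28 of the 34 ribosome biogenesis members correlated positively with that of Myc over the 9 mice, with a median Pearson r of 0.21 and a range from -0.65 (Polr1a) to 0.73 (Nop58). The share of positive correlations over all tested genes was not computed, so these counts cannot show whether the members differ from other genes. Rrs1 had r = 0.72 (exact permutation p = 0.0274; Spearman rho = 0.67, p = 0.0589), Nop58 r = 0.73 (exact permutation p = 0.0289; rho = 0.55, p = 0.133) and Ddx21 r = 0.69 (exact permutation p = 0.0379; rho = 0.68, p = 0.0503). These were the 3 with a Pearson p under 0.05. After Benjamini-Hochberg adjustment over the 34 relations none passed, with 0.325 the smallest adjusted exact permutation p for Pearson's r and 0.281 for Spearman's rho. Without mutant mouse 7 and control mouse 1, the 2 mice farthest from the median of Myc, 20 of 34 were positive and the median r was 0.087. Leaving out the most extreme mice also narrows the range of Myc. Among the members that turned negative, Pa2g4 had r = -0.88 and Nop56 r = -0.84 without these mice, against 0.27 for Pa2g4 and 0.29 for Nop56 over all 9. With each group centred on its own mean, 29 were positive with a median r of 0.37. Neither group alone has the 6 mice needed for a correlation of its own. All genes of a mouse share its libraries, and as a description the level of Myc had a Pearson correlation of -0.34 with the log2 total count.

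**Figure D4:**
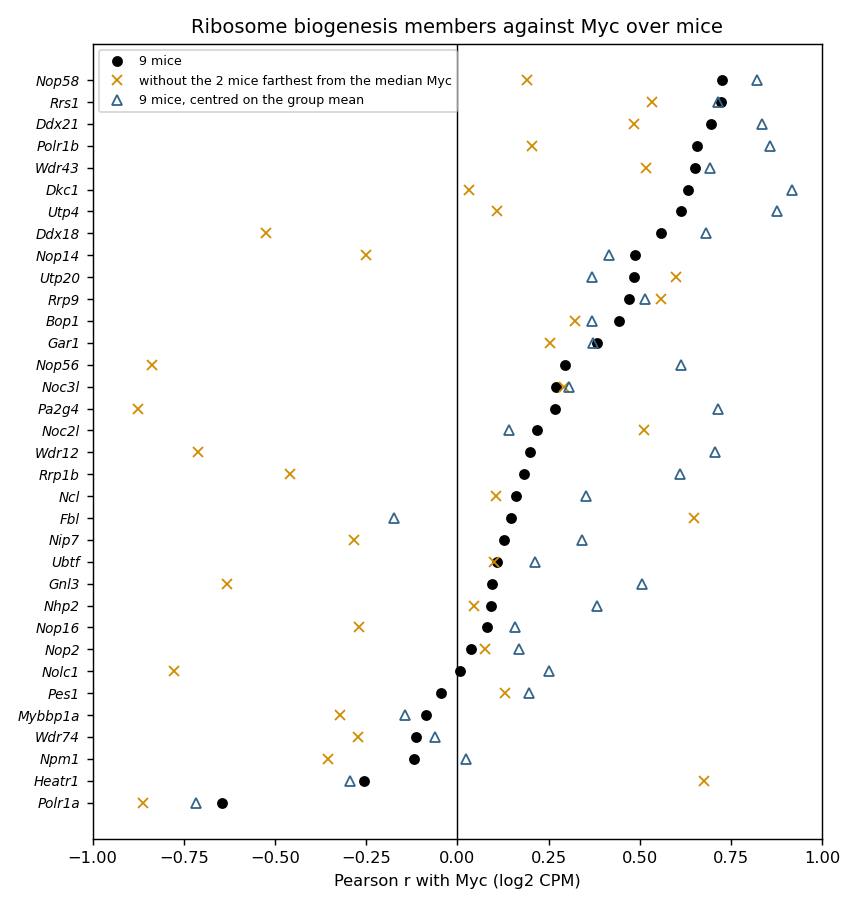
Pearson r of each ribosome biogenesis member with Myc over the mice (log2 CPM), for all 9 mice, without the 2 mice farthest from the median of Myc, and with each group centred on its mean. For all 9 mice the points run from -0.65 to 0.73, and without the 2 mice the crosses spread from -0.88 (Pa2g4) to 0.67 (Heatr1).

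The other genes of the pathway were drawn from lists that leave out the members. Each list had 0 genes past an edgeR adjusted p of 0.05, and each held genes on either side of 0. For the counts at an unadjusted p under 0.05 below, 4.96% of all tested genes were higher and 4.89% lower. Of 22 further MYC partners and regulators 21 were tested: 12 were above 0, with a median of 0.056, and at an unadjusted p under 0.05 none was higher and 1 lower. The 2 with the smallest p were Ppp2r5a, a phosphatase subunit linked to MYC turnover, at -0.24 (SE 0.11, edgeR adjusted p = 0.472), and Cip2a, an inhibitor of that phosphatase, at 0.35 (SE 0.17, edgeR adjusted p = 0.529). Of 34 further MYC target genes 28 were above 0, with a median of 0.091, 3 higher and 1 lower at an unadjusted p under 0.05. Ldha, which makes lactate, had 448 ± 45.3 CPM in mutant and 373 ± 9.34 CPM in control mice (SD; log2 fold change 0.26 with SE 0.092, edgeR adjusted p = 0.375), and Eif5a, a translation factor, had 2012 ± 106 CPM in mutant and 1705 ± 95.04 CPM in control mice (SD; log2 fold change 0.24 with SE 0.083, edgeR adjusted p = 0.379).

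Of 18 further polymerase I genes 13 were above 0, with a median of 0.094 and 1 higher at an unadjusted p under 0.05. This was Taf1d, a subunit of the polymerase I promoter factor SL1, whose mutant mice (101 to 146 CPM) all lay above the control mice (79.0 to 93.9 CPM), at a log2 fold change of 0.42 (SE 0.11, edgeR adjusted p = 0.254). Mutant mice lay wholly above control mice for 1.87% of all tested genes. Taf1d was the one gene of these lists called in a fit over all 18 libraries with a random effect for the mouse, at 0.41 (limma adjusted p = 0.0247, and 0.0300 with the technical replicate as a block). Of all 12973 tested genes that fit called 62, and 60 with the block, against 9 in the edgeR test on mice. Its consensus correlation between the libraries of a mouse was 0.18. Polr1c, a subunit shared by polymerases I and III, had the next smallest p of the polymerase I genes, at 0.16 (SE 0.085, edgeR adjusted p = 0.549). Of the 21 polymerase III genes 16 were above 0, with a median of 0.030 and none under an unadjusted p of 0.05, and those with the smallest p were Polr3f at -0.23 (SE 0.17, edgeR adjusted p = 0.680) and Crcp at 0.14 (SE 0.11, edgeR adjusted p = 0.684), both subunits of the enzyme.

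Of 10 further snoRNP genes 9 were tested and 6 were above 0, with a median of 0.15, 2 higher and 1 lower at an unadjusted p under 0.05. Nop10, the smallest core protein of the box H/ACA particle that holds dyskerin, NHP2 and GAR1, had 11.7 ± 3.82 CPM in mutant and 20.5 ± 3.76 CPM in control mice (SD; log2 fold change -0.81 with SE 0.23, edgeR adjusted p = 0.307). The mutant range of 6.14 to 15.3 CPM met the control range of 15.0 to 23.3 CPM at its edge. Rpap3, part of the chaperone that assembles snoRNPs, was at 0.27 (SE 0.092, edgeR adjusted p = 0.369).

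Of 43 further small subunit genes 31 were above 0 (median 0.081, 3 higher and 1 lower at an unadjusted p under 0.05), with the smallest p for Emg1, a methyltransferase of the small subunit RNA, at -0.39 (SE 0.14, edgeR adjusted p = 0.399) and Dcaf13 at 0.29 (SE 0.11, edgeR adjusted p = 0.408). Among 48 further large subunit genes 36 were above 0 (median 0.080, 4 higher and none lower), with the smallest p for Brix1 at 0.30 (SE 0.10, edgeR adjusted p = 0.369) and Sdad1 at 0.27 (SE 0.10, edgeR adjusted p = 0.401). The 15 exosome and exonuclease genes, which trim the precursor RNA, had 11 above 0 (median 0.090, 2 higher and none lower), with the smallest p for Xrn2 at 0.25 (SE 0.087, edgeR adjusted p = 0.369) and Exosc9 at 0.36 (SE 0.14, edgeR adjusted p = 0.408).

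Over the 133 tested genes of these polymerase I, snoRNP, subunit and exosome lists 97 had a log2 fold change above 0, or 72.9%, with a median of 0.087. At an unadjusted p under 0.05, 12 of the 133 were higher, where 4.96% of all tested genes were, and 2 were lower, where 4.89% were. Among the 34 ribosome biogenesis members 24 were above 0, or 70.6%, with a median of 0.073. Beside these stand the 51.7% and 0.0089 of all tested genes, whose quartiles were -0.14 and 0.14. Genes of a pathway are not independent replicates, and the shares over a list were not tested. Cell cycle genes had the same direction: all 15 S phase genes were above 0, with a median of 0.13 and summed levels of 2542 to 2817 CPM in mutant and 2305 to 2589 CPM in control mice, and all 15 genes of G2 and M phase were, with a median of 0.24 and summed levels of 1543 to 1767 CPM in mutant and 1354 to 1605 CPM in control mice. At an unadjusted edgeR p under 0.05, 3 of the 15 S phase genes and 9 of the 15 genes of G2 and M phase were higher and none was lower. Of all tested genes 4.96% were higher and 4.89% lower at this p. No gene of either list was past an adjusted p of 0.05. The part of the cell cycle genes in the members' values was not tested. With depth as a covariate 27 of the 34 ribosome biogenesis members were above 0, with a median of 0.076, and 88 of the 133 related genes, with a median of 0.049.

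**Figure D5:**
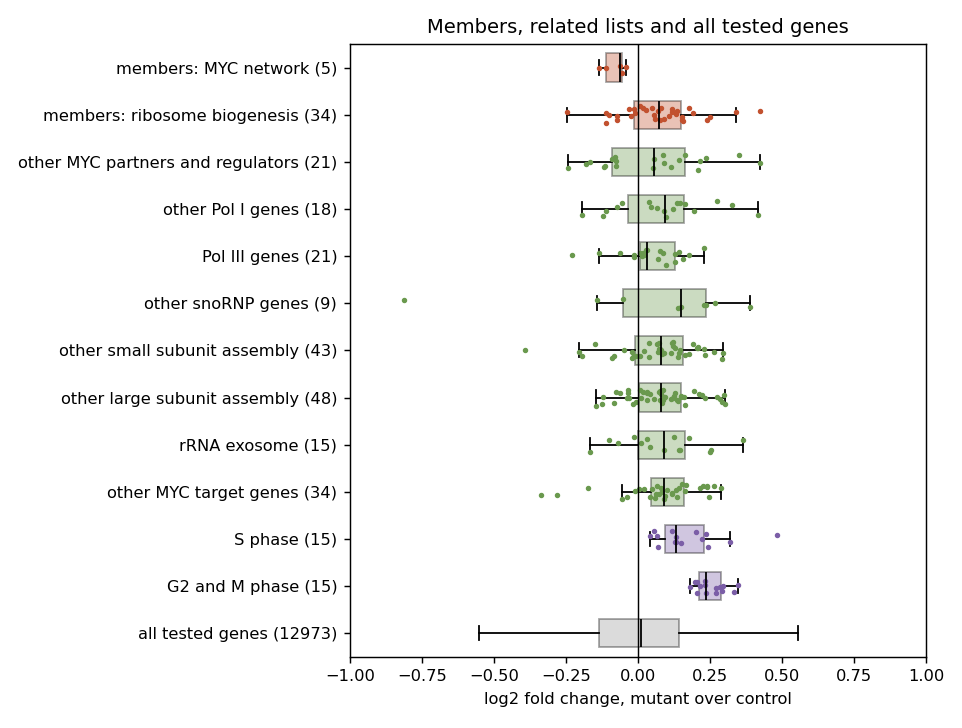
Log2 fold change, mutant over control, of the members, the related lists, the cell cycle lists and all tested genes, with the number of tested genes in brackets; boxes span the quartiles with the median as a line, whiskers reach up to 1.5 times the box, and each point is a gene (points are left out for all tested genes). Medians of the ribosome lists lie slightly right of 0 (0.073 for the members), and the G2 and M phase genes lie wholly to the right with a median of 0.24.

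A further property joins some members to the snoRNPs their neighbours in the list assemble: small nucleolar RNAs are commonly cut out of the introns of such genes. By GENCODE release 21, 6 of the 40 members (15%) hold annotated small nucleolar RNAs inside the gene, against 1.95% of 11044 tested protein-coding genes. They were Nop56 with 5, Nop58 with 4, Ncl, Gnl3 and Wdr43 with 3 each, and Dkc1 with 1. Their log2 fold changes were above 0 in 6 of 6, with a median of 0.13, beside 70.6% of the ribosome biogenesis members and 51.7% of all tested genes. However, Wdr43 kept its sign in 9 and Nop58 in 18 of the 21 alternative settings, Wdr43 turning to -0.0075 with upper-quartile scaling. Host genes outside the members were not examined. The libraries were made from polyadenylated RNA, so these values are of the host messages and not of the small RNAs. The strand setting of the counting is not given in the sources used here: 16 members overlap a gene on the opposite strand, Nop56 (Idh3b), Gnl3 (Pbrm1), Wdr12 (Carf), Dkc1 (Mpp1) and Nhp2 (Rmnd5b) among them, and 2 (Max and Mxd1) one on the same strand, and reads of such pairs may not be told apart.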

How the data were processed

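The authors deposited 1 table of estimated counts for 54347 Ensembl gene IDs in 18 libraries, of which 11.3% of values were not whole. Tools named in the submitters' processing notes are bcl2fastq, FastQC and Salmon 1.3, with build GRCm38. The strand setting, the molecular identifiers and the annotation were not given in the sources used here. By their first 18 characters 54094 IDs matched GENCODE mouse release 21, and 253 unmatched IDs held 0.00977% of the counts. Genotypes came from the labels.

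The mouse was the replicate, as the sum of its 2 libraries rounded to whole counts. Tests used the quasi-likelihood F-test of edgeR 4.0.16 (R 4.3.3) on all 9 mice without covariates, after TMM scaling and a filterByExpr minimum of 10 counts, with Benjamini-Hochberg adjustment over 12973 genes and a threshold of 0.05. CPM use TMM factors; a standard error is the log2 coefficient over the root of F. A floor of 3 counts was 0.118 to 0.255 CPM per mouse; it covers counting error only. The biological coefficient of variation was 18.7%. The labels do not say how the mice were housed or processed in batches. Scripts were tested on simulated data.

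The members, the lists of related genes and markers and the tests were chosen with earlier results of these data known. Values in every mouse are given for Myc, Mycn, Max, Ncl, Npm1 and Fbl and for the 3 tested members of each role with the smallest unadjusted p; of each related list, the 2 genes with the smallest p are named. Rrs1, which is outside this rule, was chosen after its values were seen. Correlations used log2 CPM with a prior count of 2 and all pairings of the 9 mice. Alternatives were DESeq2 1.42.0, limma-voom 3.58.1, other scaling factors and filters, single technical libraries, a random effect of the mouse, depth as a covariate and each mouse left out.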

Additional observations from a re-analysis of the deposited data

Results flagged for a closer look

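In 6 of 78 sets of member values (39 genes in each group of mice) 1 mouse stood apart from the others of its genotype by Dixon's ratio of its gap to the range; chance alone marks about 1 in 20 such sets. Mutant mouse 12 had 1014 CPM of Ncl, above the 749 to 789 CPM of the other mutant mice, and 30.5 CPM of Wdr74, below their 37.1 to 39.5 CPM. Control mouse 1 had 281 CPM of Myc, above the 215 to 221 CPM of the other control mice, 185 CPM of Pa2g4, above their 140.5 to 147 CPM, and 77.4 CPM of Wdr43, above their 60.1 to 61.9 CPM. Control mouse 3 had 33.8 CPM of Max, below the 42.7 to 44.1 CPM of the other control mice. Control mouse 1 was also the shallowest mouse, with 11766467 counts.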

How the results depend on the processing

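No member passed an edgeR adjusted p of 0.05, or that of the other tools, under any of the 21 alternatives, where the smallest adjusted p was 0.277, for Pa2g4 without mutant mouse 12. Of the 39 members 22 to 29 were above 0, against 24 as reported. Their median, 0.054 as reported, moved by less than the pooled SD of the members' median over mice (0.089), which is itself larger than the reported median. It changed by more than 1.5 times without mutant mouse 6 (0.10), 7 (0.023) or 12 (0.011) and without control mouse 1 (0.085), 3 (0.026) or 4 (0.031). Over the alternatives 22 to 28 of the 34 ribosome biogenesis members were above 0, with medians of 0.039 to 0.12, and 0 to 2 of the 5 MYC network members were; for the related assembly genes the range was 88 to 100 of 133 with medians of 0.049 to 0.10, for S phase genes 12 to 15 and for G2 and M phase genes 15 in each. The log2 fold change of Fbl ran from -0.42 to -0.12, of Pa2g4 from 0.18 to 0.44, of Gnl3 from 0.10 to 0.36, of Wdr12 from 0.19 to 0.29 and of Myc from -0.25 to -0.036.

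The number of genes called over the whole table, 9 here, was 90 with DESeq2, 21 without the filter on low counts, 0 for genes with a mean of at least 10 CPM, 0 in the first and 3 in the second technical libraries alone, 0 with depth as a covariate, 0 without the first library of mutant mouse 7 (an alternative chosen after seeing the data) and 0 to 7 with 1 mouse left out; the cause was not tested. Over 18 libraries, with a random effect for the mouse, it was 62, and 60 with the technical replicate as a block, a pairing of the libraries of a mouse and not of mice, whose numbers are not shared between the groups. No paired analysis of mice was possible because the groups share no mouse number.

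Log2 fold changes that changed sign were mostly small as reported. With upper-quartile factors this was Wdr43 -0.0075; with limma-voom Wdr43 -0.0016; with no filter Polr1a 0.0011; at 10 CPM or more Wdr43 -0.0012. In the first libraries alone they were Mga 0.099, Polr1a 0.058, Mybbp1a 0.013, Nolc1 -0.026, Nop58 -0.18, Rrp9 -0.093, Heatr1 0.089, Wdr43 -0.022, Nop16 -0.079, and in the second Max 0.12, Mxi1 0.053, Nop2 -0.022, Rrs1 0.19, Noc3l -0.043. Over 18 libraries they were Wdr43 -0.016 without and Rrp9 -0.0015, Wdr43 -0.019 with the replicate block. With depth as a covariate they were Polr1a 0.049, Npm1 -0.10, Gar1 0.15, Nop14 0.0079, Heatr1 0.058, Nop16 -0.0030, Rrs1 0.050, Wdr74 -0.10, Noc2l 0.026, and without the first library of mutant mouse 7 Polr1a 0.022, Wdr43 -0.026. With each mouse left out in turn the ranges were Ddx18 -0.0088 to 0.19, Gar1 -0.22 to 0.048, Heatr1 -0.060 to 0.028, Max -0.14 to 0.0069, Mxd1 -0.12 to 0.063, Mxi1 -0.11 to 0.0015, Mybbp1a -0.075 to 0.019, Noc3l -0.024 to 0.11, Nop14 -0.11 to 0.0035, Nop58 -0.044 to 0.19, Polr1a -0.044 to 0.053, Rrp9 -0.043 to 0.082, Rrs1 -0.24 to 0.014, Wdr43 -0.11 to 0.10, Wdr74 -0.0062 to 0.15. The median standard error of a member was 0.11; what sets it was not tested.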
